A study of Mus musculus with 15 samples.

Results

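The Prox1 locus was examined as a 350000 bp window of mouse chromosome 1 (build mm9, chr1:191800000-192150000) around Prox1, which lies near 191940000 to 191990000 in that build. Its members were chosen by position only, as every accessible region of the deposited table that overlaps the window. The table held 2 such regions among 2923 on chromosome 1 and 43020 in all, and neither lay within the Prox1 interval itself. The assay was ATAC-seq, where transposase inserts sequencing adapters into open DNA, and the samples were 15 organoid lines of mouse colon cancer. All lines carried the genotype labelled AKP and came from tumours grown in C57Bl6 recipient mice. Met1, Met2 and Met3 denote lines from liver metastases after 1, 2 and 3 rounds of transplantation into the colon, while Primary2 and Primary3 are primary tumour lines of the second and the third round. Each of these 5 groups held 3 lines. Round 1 primary lines were not analysed here. The ancestry of single lines is unstated in the labels, and p-values therefore measure the spread among these lines.

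Prox1 encodes a homeobox transcription factor that is required for the formation of lymphatic vessels and for early liver development. In the gut it marks enteroendocrine cells, and in intestinal tumours it is known as a target of Wnt signalling through beta-catenin and TCF that is linked to tumour progression. ATAC-seq reads openness of DNA and not transcription, so Prox1 expression was not measured in these data. The series asks, by its title, about lineage plasticity after loss of the transcription factor GATA6 in metastasis. The comparison addressed here is whether accessibility near Prox1 differed between metastasis and primary lines or along the rounds.

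As the rule places Prox1, the stretch without a region included the start of the gene. RefSeq (GRCm38.p6) lists 2 promoters for Prox1, both on the minus strand. The one at the outer end of the gene is printed because no region of the table reached the Prox1 interval. Its 250 bases before the start are at chr1:190170828-190171077 in GRCm38.p6, a build that was not mixed with the mm9 positions of the table, and are given with CpG dinucleotides in capitals.
Prox1 promoter: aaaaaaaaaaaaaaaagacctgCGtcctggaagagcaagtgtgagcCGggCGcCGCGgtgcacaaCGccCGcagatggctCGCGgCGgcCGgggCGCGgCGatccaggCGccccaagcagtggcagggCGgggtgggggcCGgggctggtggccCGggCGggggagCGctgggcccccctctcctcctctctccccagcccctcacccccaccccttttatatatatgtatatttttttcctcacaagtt
This stretch held 20 CpG dinucleotides and 64.8% G or C, against medians of 6 and 52.4% over the 32851 promoter entries of the same length. The GATA motifs AGATAA and TGATAA, which differ in their opening letter, and the TCF/LEF motif CTTTGAT were searched on both strands and had 0 matches each. They occurred in 9.99%, 7.94% and 3.21% of all promoter entries. A missing match says only that these letters are not in this window. The sequences of both members are not shown, since no mm9 genome was used here.

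The locus was sparsely covered. The gap in front of the member nearer to Prox1, which holds the whole Prox1 interval, spanned 241420 bp, against a median gap of 17456 bp between neighbouring regions of chromosome 1. Of 2922 gaps on the chromosome, 156 (5.34%) were at least as wide. A window of this width with so few regions was nonetheless common, since 260 of 554 consecutive windows of chromosome 1 (46.9%) held 2 or fewer regions and the median window held 3. The coverage differed between the sides of the window, with 19 regions in the 350000 bp below it and 1 in the 350000 bp above it. The authors' region names carry running numbers. Of the 15 numbers between the regions that flank the window, 2 were in the table (13.3%). The share was 39.8% of all numbers up to the highest and 48.1% of chromosome 1 numbers. Some of the absent numbers fall between peak_5786 and peak_5793, the regions on either side of the gap that holds the Prox1 interval. That gap is thus a gap of the table and does not show that no region was called there. The regions behind the absent numbers were not analysed here.

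**Figure D1:**
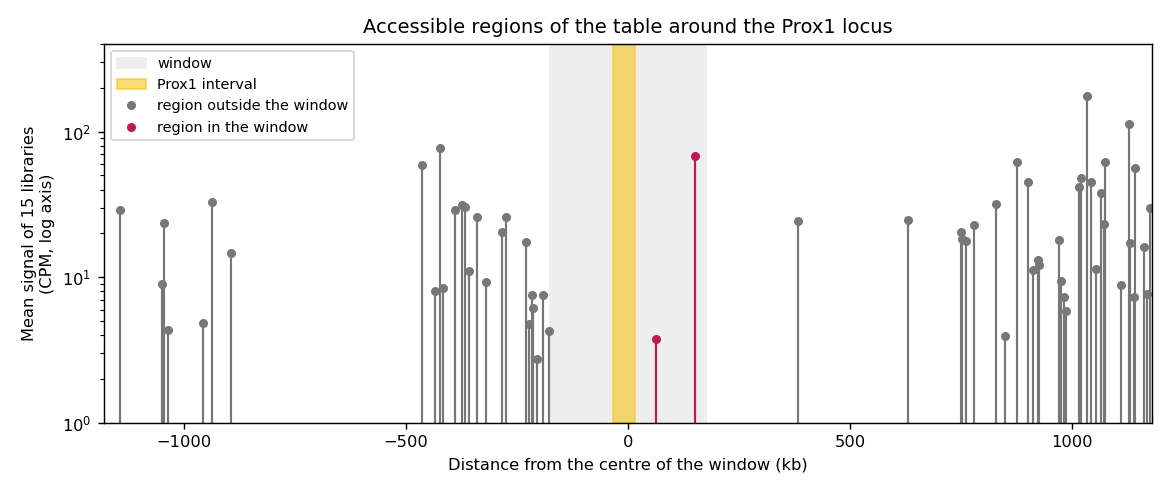
Each point is an accessible region of the table, at its distance in kb from the centre of the window (x axis) and its mean signal over the 15 libraries in CPM (y axis, log scale). The grey band is the 350000 bp window with its 2 regions in red, and the yellow band is the Prox1 interval, in which the table held no region.

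The members were unlike each other in width and strength. In the authors' numbering they are peak_5793 (mm9 chr1:192038629-192039016) and peak_5797 (chr1:192123911-192127496). They lay 48629 bp and 133911 bp above the upper end of the Prox1 interval. In RefSeq's gene order (GRCm38.p6) Prox1 is on the minus strand, so both lay on the side of its start, where the next gene is the long non-coding RNA Prox1os. Whether either lies within Prox1os could not be placed, because no mm9 annotation was used here.

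Peak_5797 was among the widest regions of chromosome 1. It spanned 3585 bp, against a median of 707 bp, and 6 of 2923 regions of the chromosome were at least as wide, itself included. Its mean signal was 67.8 CPM (counts scaled to a common library size), above 94.7% of chromosome 1 regions or equal to them. Per kb of width the signal was 18.9 CPM, close to the chromosome 1 median of 16.8. Its score in the authors' region name, 12.5, stood at the 34.9th percentile of the chromosome (median 21.0). A wide stretch of moderate signal per base thus made up its total.

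Peak_5793 was narrow and weak. It spanned 387 bp with a mean signal of 3.75 CPM, at the 10.8th percentile of chromosome 1, and a score of 5.94, at the 7.77th percentile. It held 105 counts over all 15 libraries, where peak_5797 held 1883. Both members passed the filter on low counts, as did 39952 of 43020 regions (92.9%).

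At peak_5797 the lines of most groups were close together, and single lines in Met1 and Primary3 stood far from the rest. The signal in the Met1 lines was 227.6, 52.0 and 34.0 CPM in replicates 1, 2 and 3. The Met2 lines held 71.7, 57.4 and 76.9 CPM, and the Met3 lines 46.2, 56.5 and 73.8 CPM. The Primary2 lines held 70.7, 68.9 and 75.8 CPM, and the Primary3 lines 9.44, 38.2 and 58.3 CPM. Metastasis and primary lines overlapped in both rounds. In round 2 the Primary2 lines lay within the range of the Met2 lines, and in round 3 the Met3 lines overlapped the upper Primary3 line.

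Counting error does not cover the distance of the outlying lines. The exact 95% interval was 197.2 to 261.3 CPM in Met1 replicate 1, from 201 counts. In Primary3 replicate 1 it was 6.22 to 13.7 CPM, from 27 counts, so that the line with the highest signal exceeded the line with the lowest by 24.1-fold. These intervals cover counting error only, since reads amplified by PCR are not independent molecules. Met1 replicate 1 had the second lowest library total of the series (790233 counts) and Primary3 replicate 1 one of the higher totals (3051139), whereas the library with the lowest total, Primary3 replicate 2 (285633 counts), was not outlying at this region. The part of depth in these values was not tested.

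Group means at peak_5797 were 104.5 ± 106.9 CPM in Met1, 68.7 ± 10.1 in Met2, 58.8 ± 14.0 in Met3, 71.8 ± 3.59 in Primary2 and 35.3 ± 24.6 in Primary3 (SD, n = 3 each). In order of level, Met1 stood above Primary2, Met2, Met3 and Primary3, with the Met1 mean set by replicate 1, while its other lines were below every Primary2 line. From Primary2 downwards, neighbours in that order differed by less than the larger of their SDs. The SD ran from 3.59 CPM in Primary2 to 106.9 CPM in Met1. The biological coefficient of variation of this region in the fit was 0.46, at the 81.4th percentile of the tested regions of chromosome 1 (median 0.35).

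At peak_5793 a few lines held nearly all of the signal within the later metastasis groups. Replicates 1, 2 and 3 held 14.6, 0.45 and 0 CPM in Met2, from 22, 1 and 0 counts. In Met3 they held 0.61, 0 and 7.12 CPM, from 1, 0 and 11 counts. Met1 was more even, with 7.93, 3.81 and 5.67 CPM. Thus 1 line of Met2 stood above all Met1 lines and 1 line of Met3 stood within their range, and the other lines of these groups were near or at 0.

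The primary lines at peak_5793 held 8.11, 3.28 and 2.42 CPM in Primary2 and 1.40, 0 and 0.86 CPM in Primary3. Each Primary3 line was below each Primary2 line, and how many tested regions separate in this way was not counted. The count of 0 in Primary3 replicate 2 came from the shallowest library and allows up to 11.8 CPM (exact 95% interval, 3 counts would be 9.56 CPM), which reaches above every Primary2 line. In Met2 replicate 3 and Met3 replicate 2 a count of 0 allows up to 2.58 and 1.41 CPM, below the lower bound of 9.16 CPM in Met2 replicate 1. The spread among Met2 lines at this region was thus larger than counting error.

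Means at peak_5793 were 5.80 ± 2.06 CPM in Met1, 5.02 ± 8.31 in Met2, 2.58 ± 3.95 in Met3, 4.60 ± 3.07 in Primary2 and 0.75 ± 0.71 in Primary3 (SD, n = 3 each). The order was Met1, Met2, Primary2, Met3 and Primary3, and the SD exceeded the mean in Met2 and Met3. Its coefficient of variation in the fit, 0.86, was at the 99.9th percentile of tested chromosome 1 regions. The organoid lines are bulk samples, so a region open in fewer cells and one less open in every cell cannot be told apart.

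**Figure D2:**
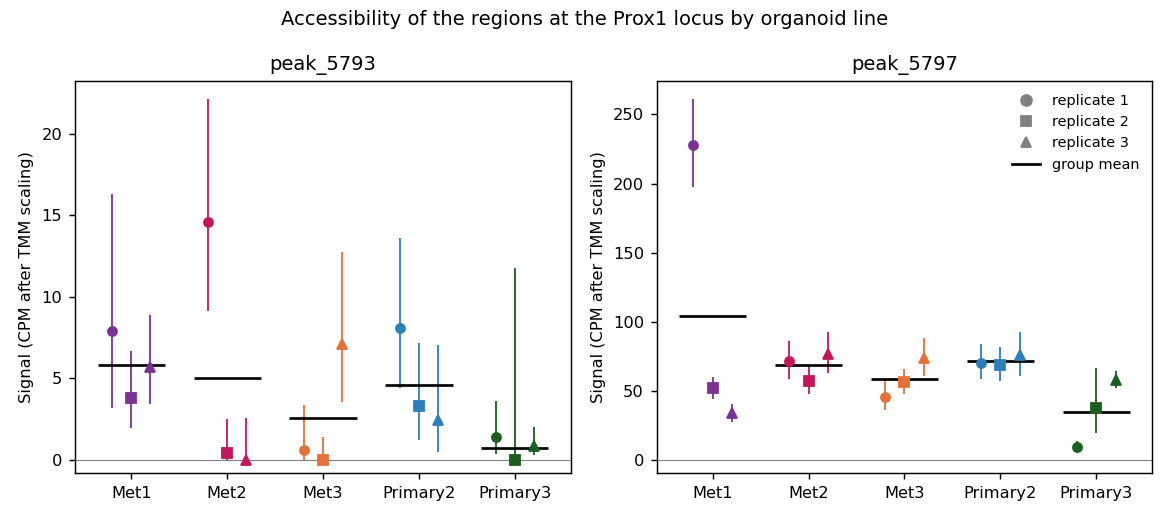
Signal in CPM after TMM scaling (y axis) at peak_5793 (left) and peak_5797 (right) for each organoid line, by group (x axis). Points are lines with exact 95% intervals for counting error and black bars are group means. Met2 replicate 1 stands apart at peak_5793 (14.6 CPM), and Met1 replicate 1 stands apart at peak_5797 (227.6 CPM).

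Later metastasis lines (Met2 and Met3) were set against Primary2 and Primary3 with edgeR's quasi-likelihood test with Benjamini-Hochberg adjustment over all tested regions. Neither member passed at an adjusted p of 0.05, against 20.2% of all 39952 tested regions. At peak_5797 the log2 fold change of metastasis over primary lines was 0.33 ± 0.40 (SE, edgeR adjusted p = 0.63). The 95% interval ran from -0.50 to 1.16, which includes a 2-fold rise and does not include a 2-fold fall. The value was 0.06 without Primary3 replicate 1 and 0.90 without Primary3 replicate 3. At peak_5793 it was 0.61 ± 0.85 (edgeR adjusted p = 0.68), with an interval from -1.14 to 2.37. The direction at peak_5793 rested on single lines, with a log2 fold change of -1.35 without Met2 replicate 1 and -0.89 without Met3 replicate 3.

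Within single rounds the members did not pass either. In round 2 none of the 2 was called, against 6.21% of all regions, and the Met2 and Primary2 means at peak_5797 differed by less than the SD of Met2. In round 3 none was called, against 10.2%. The log2 fold change in round 3 was 0.73 ± 0.58 at peak_5797 (SE, edgeR adjusted p = 0.49) and 1.17 ± 1.32 at peak_5793 (adjusted p = 0.65), with intervals from -0.48 to 1.93 and from -1.57 to 3.91. Without Met3 replicate 3 the value at peak_5793 was -1.83. That at peak_5797 was 0.18 without Primary3 replicate 1 and 1.85 without Primary3 replicate 3. The difference between the rounds was 0.79 ± 0.80 at peak_5797 and 1.12 ± 1.69 at peak_5793 (edgeR adjusted p = 0.91 and 0.95). For that difference edgeR called 0 of 39952 regions (0%), although 2568 had an unadjusted p under 0.05. DESeq2 called 16, neither member among them.

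Round 1 metastasis lines were compared with the later primary lines, a comparison in which origin and round cannot be told apart. No member was called, against 9.47% of all regions. Peak_5797 gave the lowest p of the members here, with a log2 fold change of 0.97 ± 0.47 (SE, unadjusted p = 0.053 and adjusted p = 0.22 by edgeR) and an interval from -0.02 to 1.96. This difference rested on Met1 replicate 1: without it the value was -0.23 (adjusted p = 0.79). Without Primary3 replicate 3 it was 1.56 and passed (edgeR adjusted p = 0.048), the only call of a member in any of the settings tried. At peak_5793 the value was 1.32 ± 0.95 (adjusted p = 0.43).

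Along the metastasis series no member was called in Met2 against Met1 or in Met3 against Met1, where 3.55% and 9.54% of all regions were. From Met1 to Met3 the log2 fold change was -0.75 ± 0.55 at peak_5797 (SE, edgeR adjusted p = 0.45) and -1.22 ± 1.13 at peak_5793 (adjusted p = 0.57). Without Met1 replicate 1 the value at peak_5797 was 0.43. The value at peak_5793 was -0.54 without Met3 replicate 2 and -4.21 without Met3 replicate 3, the latter a fitted value with 1 count left in Met3. These comparisons and the preceding one share the Met1 lines. Between Met3 and Met2, edgeR called 0 of 39952 regions (0%), although 2926 had an unadjusted p under 0.05. DESeq2 called 47.

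Primary3 was fitted below Primary2 at both members. The log2 fold change was -2.15 ± 1.26 at peak_5793 (SE, edgeR adjusted p = 0.82) with an interval from -4.75 to 0.45, and -1.01 ± 0.58 at peak_5797 (adjusted p = 0.81) with an interval from -2.23 to 0.20. The value at peak_5797 was -0.48 without Primary3 replicate 1 and -2.14 without Primary3 replicate 3. The point values of these groups did not overlap at either region, with Primary2 above Primary3. Counting error in Primary3 replicate 2, the shallowest library, allows up to 11.8 CPM at peak_5793, above every Primary2 line. At peak_5797 its interval, 19.8 to 66.8 CPM, reaches into those of the Primary2 lines. How many of all tested regions separate in this way was not counted, so no result is drawn from it. In this comparison edgeR called 0 of 39952 regions (0%), although 2646 had an unadjusted p under 0.05. DESeq2 called 46. Over all 9 comparisons, 0 of 2 members had an unadjusted p under 0.05 by edgeR. Among all 39952 tested regions the number ran from 2568 (difference between rounds) to 12739 (rounds 2 and 3 together). DESeq2 called 0 members in every comparison, beside 16 (difference between rounds) to 8929 (rounds 2 and 3 together) of all regions. It gave no adjusted p for peak_5793 in 3 comparisons (Primary3 against Primary2, Met3 against Met2, and the difference between rounds). A p that misses the threshold does not show that levels were equal, and the intervals at peak_5793 include a 4-fold change in at least 1 direction in all 9 comparisons.

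**Figure D3:**
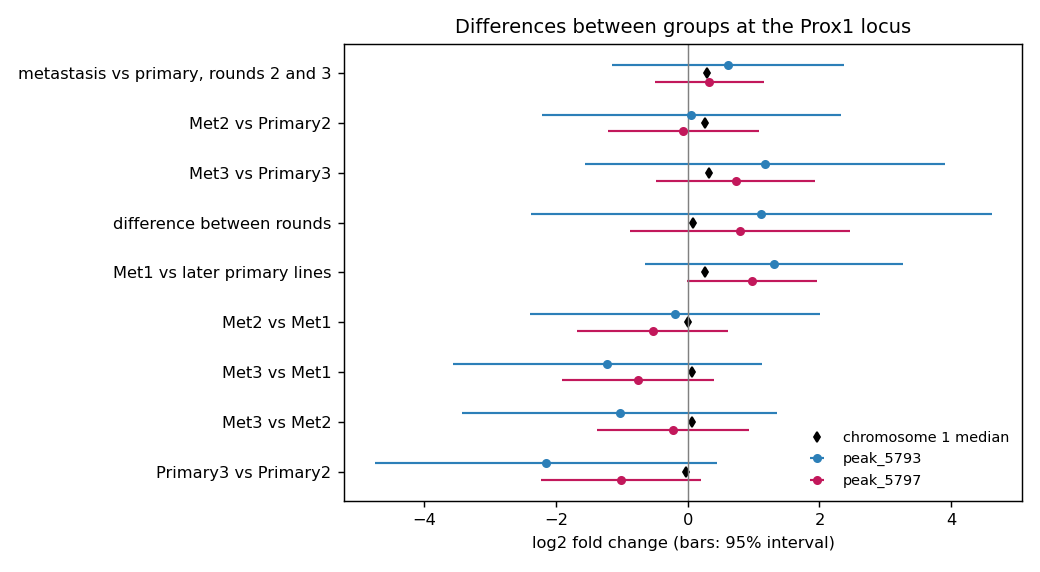
Log2 fold change (x axis) of peak_5793 (blue) and peak_5797 (red) in each comparison (y axis), with bars for the 95% interval and diamonds for the median fold change of chromosome 1 regions. Every interval includes 0, and those of peak_5793 are wider than those of peak_5797.

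Signal on chromosome 1 as a whole was higher in metastasis lines, and the members were set against it. The median deviation of chromosome 1 regions from their 15-library mean was 0.17 ± 0.07 on the log2 scale in the later metastasis lines. In the primary lines it was -0.11 ± 0.14 (SD, n = 6 each), a difference of 0.28. Among the primary lines, Primary3 replicate 2, the shallowest library, stood at -0.39 and the others between -0.08 and -0.02. The fitted log2 fold change at peak_5797 in rounds 2 and 3 together was 0.33, beside a chromosome 1 median of 0.30, and it ran from 0.06 to 0.90 when single lines were left out. With each library's chromosome medians removed it was 0.08, and that of peak_5793 was 0.40.

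Relative to the chromosome 1 median, peak_5797 stood at -0.03 ± 0.31 in the later metastasis lines and -0.22 ± 1.12 in the primary lines (SD, n = 6 each). Primary3 replicate 1 stood at -2.45, while the other 5 primary lines were between -0.17 and 0.49. For peak_5793 the values were -0.52 ± 1.75 and -0.06 ± 1.04. It stood at 2.24 in Met2 replicate 1 and 1.08 in Met3 replicate 3, and between -1.95 and -1.23 in the other 4 later metastasis lines. Taken over both members, the locus stood at -0.27 ± 0.96 in metastasis lines and -0.14 ± 0.88 in primary lines. The difference of -0.13 was smaller than the SD within groups (0.83). Its sign was not stable: with single lines left out it ran from -0.48 (without Met2 replicate 1) to 0.04 (without Met2 replicate 2). No p is given for this value, which is a summary over the members.

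**Figure D4:**
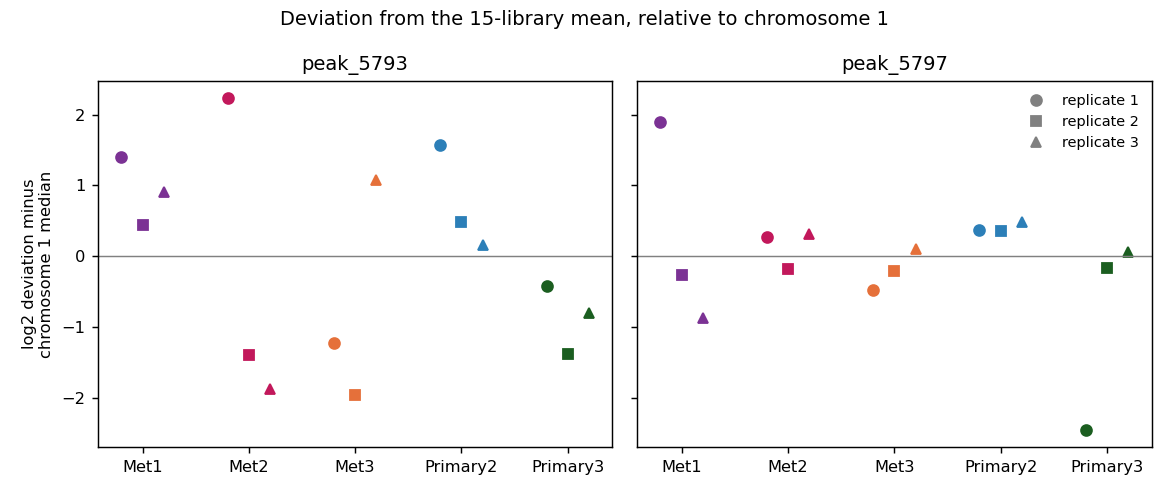
Deviation of each line from the 15-library mean at peak_5793 (left) and peak_5797 (right), minus the chromosome 1 median of the same library, on the log2 scale (y axis) by group (x axis). Lines of Met2 and Met3 fall on both sides of 0 at peak_5793, and at peak_5797 the points farthest from 0 are Met1 replicate 1 (1.90) and Primary3 replicate 1 (-2.45).

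Counts summed over the locus followed peak_5797, which held most of them. The sum was 110.3 ± 108.7 CPM in Met1, 73.7 ± 14.5 in Met2, 61.4 ± 17.6 in Met3, 76.4 ± 3.64 in Primary2 and 36.1 ± 24.2 in Primary3 (SD, n = 3 each). Across the 15 libraries, log2 CPM of the members correlated at r = 0.32, and at 0.18 without Met1 replicate 1. This is a description over libraries that share their depth and scaling.

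The regions most like the locus sum lay on other chromosomes. Among 19975 regions with at least the median signal, the highest correlations of log2 CPM over the 15 libraries were those of peak_71453 (mm9 chr5:26585083-26586965, r = 0.94), peak_103405 (chr9:65715471-65718083, r = 0.94) and peak_106453 (chrX:32104341-32106469, r = 0.93). They were 1882, 2612 and 2128 bp wide. Each had its highest signal in Met1 replicate 1, from 48.7 CPM at peak_103405 to 135.9 at peak_106453. Each had its lowest in Primary3 replicate 1, as peak_5797 did. These regions were picked for likeness to the locus sum, so the shared extremes come with that choice and are no separate finding. Of all 39952 tested regions, 1120 (2.80%) had the same highest and lowest library, a count made after the members' values were seen. Among the 1880 regions wider than 2000 bp, 117 (6.22%) did.

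The edges of the window were set by position. The nearest region below it, peak_5786 (chr1:191796812-191797208), had a mean of 4.27 CPM, near that of peak_5793 inside. It held 5.85 ± 0.82 CPM in Met1, 5.83 ± 1.85 in Met2, 5.01 ± 1.49 in Met3, 2.77 ± 1.44 in Primary2 and 1.90 ± 1.81 in Primary3 (SD, n = 3 each). The nearest region above it, peak_5802 (chr1:192356352-192357467), had a mean of 24.3 CPM. It was high in the Met1 lines (38.5, 75.5 and 81.4 CPM) and in Met2 replicate 1 (81.0), and between 1.05 and 23.0 CPM in the other 11 lines.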

How the data were processed

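Per the labels' protocols, dissociated organoid cells were treated with TDE1 transposase and both ends of fragments were sequenced. Build mm9 and the tools Bowtie, Picard, SAMtools, MACS2 and bedtools are listed, without roles or versions, in the submitters' processing notes. Treatment of duplicates and of the transposase offset was not given in the sources used here. Raw counts were deposited for regions that, by their names, had been called over all samples together.

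Library totals ran from 285633 to 5916109 counts. Columns were matched to lines through library names, and groups came from titles. Low regions were removed with filterByExpr (at least 10 counts, and 15 in total), libraries were scaled by TMM, and counts were fitted with edgeR 4.0.16 (R 4.3.3) as 5 group means over 15 libraries, with a quasi-likelihood test. Standard errors came from the fold change and its F statistic, and 95% intervals from the t distribution with the fit's degrees of freedom. Log2 CPM used a prior count of 2. The labels give no sequencing batch. The script was tested on simulated data.

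Regions given with values by rule are all members, the nearest region outside each edge and the 3 regions most like the locus sum. Peak_5764 and peak_5815 fall outside this rule and were picked after values were seen. Members, rules and lists were chosen with earlier results of these data known. Alternatives were DESeq2 1.42.0, scaling by totals, other filters, fits of only the groups compared, a replicate block, removal of chromosome medians or of a lowess trend (span 0.3), other windows and leaving out each line.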

Additional observations from a re-analysis of the deposited data

How the results depend on the processing

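No member was called in any comparison by DESeq2, by edgeR with library totals, without a filter, with a minimum count of 30, with chromosome medians or a trend removed, or in fits of only the groups compared. Only peak_5797 was tested with a minimum count of 30, and in fits of only the groups compared for Met2 against Primary2, Met3 against Primary3, Met3 against Met2 and Primary3 against Primary2, since the filter removed peak_5793 there. DESeq2 gave peak_5793 no adjusted p in 3 comparisons. With the window extended by 350000 bp on each side, calls among 21 tested regions numbered 6 in rounds 2 and 3 together (beside 20.2% of all regions), 2 in round 2 (6.21%), 2 in round 3 (10.2%), 9 for Met1 against later primary lines (9.47%), 1 for Met2 against Met1 (3.55%) and 3 for Met3 against Met1 (9.54%). All of these lay outside the original window. The locus sum then differed by 130.1 CPM between metastasis and primary lines, against 11.3 CPM for the 2 members. For the members it was 5.05 CPM without Primary3 replicate 1, 6.41 without Met3 replicate 3 and 17.5 without Primary3 replicate 3. The locus value relative to chromosome 1 (-0.13) was 0.18 with a minimum count of 30, which left peak_5797 alone, 0.25 with the extended window and -0.32 with a prior count of 0.5. Restricting the locus to the Prox1 interval left no region and gave no value. When each line was left out in turn, the count for Met1 against later primary lines ran from 0 to 1 and the other counts stayed at 0.

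Alternative fold changes of the members were not recorded for Met2 against Primary2 or Met1, Met3 against Met2 and the difference between rounds. Of 232 recorded, 224 kept direction and call, 7 changed sign and 1 gained a call. That was peak_5797 for Met1 against later primary lines (1.56 without Primary3 replicate 3). Sign changes at peak_5797 came without Met1 replicate 1 (-0.23 against later primary lines, 0.43 for Met3 against Met1). They also came with Primary3 replicate 2 left out too (-0.23 and 0.44), a setting chosen after seeing the data. Those at peak_5793 came without Met2 replicate 1 (-1.35 in rounds 2 and 3 together) and without Met3 replicate 3 (-0.89, and -1.83 in round 3). With single lines left out, values at peak_5793 spanned -1.35 to 0.96 in rounds 2 and 3 together and -1.83 to 1.84 in round 3. Those at peak_5797 spanned -0.23 to 1.56 for Met1 against later primary lines and -1.18 to 0.43 for Met3 against Met1. Deviations of lines with the same replicate number correlated at -0.03 to 0.09 across regions. These values showed no shared deviation by number and cannot show whether such lines are related. With the replicate block 0 members were called in every comparison. Fold changes in rounds 2 and 3 together were 0.36 at peak_5797 and 0.58 at peak_5793. Peak_5793 rests on 105 counts in all, and the part of depth in its wide intervals was not tested.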

Other observations

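Some regions in the flanks of the window were called. All tested flank regions but 1 (peak_5802) lay below it. The share called on chromosome 1 alone was not counted, and 2 members are too few to set the flanks apart from the window. Of 19 tested regions within 350000 bp of its edges, 5 were higher and 1 lower in metastasis lines of rounds 2 and 3 together, against 20.2% called among all regions (edgeR quasi-likelihood test). The strongest was peak_5764 (mm9 chr1:191635628-191636120), which lies 163.9 kb below the window. It held 51.4 ± 16.4 CPM in the later metastasis lines and 5.83 ± 5.12 in the primary lines (SD, n = 6 each), and its log2 fold change was 3.30 ± 0.36 (SE) with an edgeR adjusted p of 1.46e-06. It was also higher in Met3 than in Met1 (2.03 ± 0.45, adjusted p = 0.0055) and in Met2 than in Met1 (1.71 ± 0.45, adjusted p = 0.034). This region was singled out after its values were seen, and no gene is assigned to it here.

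Peak_5802, the nearest region above the window, was higher in Met1 than in the later primary lines (log2 fold change 3.24 ± 0.67, SE, edgeR adjusted p = 0.0046) and lower in Met3 than in Met1 (-2.96 ± 0.82, adjusted p = 0.027). Over the 15 libraries its log2 CPM correlated with that of peak_5793 at r = 0.71, a pair picked after its values were seen. Both had their highest or nearly highest value in Met2 replicate 1.

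The next region beyond it, peak_5815 (chr1:192604219-192606558), had the pattern of peak_5797, with 84.9 CPM in Met1 replicate 1, 6.64 in Primary3 replicate 1 and between 11.0 and 32.3 in the other 13 lines. Met1 replicate 1 was the highest library at 12.7% of all tested regions and at 17.4% of the 1880 regions wider than 2000 bp. Primary3 replicate 1 was the lowest at 6.05% and 9.15% of them. Both held together at 2.80% and 6.22%. These counts were made after the members' values were seen, and the cause was not tested.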
